A study of Mus musculus with 53 samples.

Results

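The genes described here make the proteins that build, fill and connect the mitochondrion: the proteins of its ribosome (Mrpl for the large subunit, Mrps for the small one), the translocases that import proteins across its outer (Tomm) and inner (Timm) membranes, and the carriers that move metabolites across its inner membrane (Slc25a). The chaperones Hspd1, Hspe1 and Hspa9, the prohibitin Phb2, the porins Vdac1, Vdac2 and Vdac3, and Tfam, a packaging and transcription factor of mitochondrial DNA, were added by name. Members were taken by annotated gene symbol alone, without the carriers Slc25a1 and Slc25a20, by a rule that uses no measured value. The rule was chosen, however, with earlier results of these data known. Each gene was read from 1 probe set, the one with the highest mean over all arrays. This gave 104 of the 8251 genes with a named probe set on the array, and 91 of the 104 lay above an intensity of 158, the median of all values, on at least 2 arrays. Only these 91 were tested, among 5761 genes in all. Because 2 arrays suffice, a gene could enter only through a group in which it is high.

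Mitochondria keep a small genome that encodes a few subunits of the respiratory chain, and a ribosome of their own translates them. Its proteins, like nearly all other mitochondrial proteins, are encoded in the nucleus, made in the cytosol and threaded through the outer and inner membrane translocases, where the motor protein Hspa9 pulls them in and the chaperonin of Hspd1 and Hspe1 folds them. Fat cells that differentiate in culture are known to gain mitochondria, whose citrate and reducing power feed fatty acid synthesis.

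NIH-3T3 cells, a mouse embryo fibroblast line, carried an insert for EBF1, an insert for PPARg2 or an empty vector. Adipogenic hormones were then added to cells of each kind. Day 0 is the time before the hormones, so the day 0 arrays show untreated cells, and days 2, 4 and 10 follow the treatment. EBF1 and PPARg are transcription factors that promote the making of fat cells, and the design asks what each adds to the hormones alone. Total RNA was read on 53 Affymetrix MG_U74Av2 arrays from 12 groups. There were 4 arrays of each insert at day 0 and at day 2, and 7 of each at day 4. At day 10 there were 2 arrays of EBF1 cells, 3 of PPARg cells and 3 of vector cells. The labels speak of independent stimulations but tie no array to a separate transduction, so the p-values measure the spread between these arrays.

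The mean intensity of the arrays ranged from 309 to 370. It was highest on EBF1 replicate 1 (370) and PPARg replicate 3 (355) of day 10. Their medians, 152 and 149, lay within the range of all arrays. The arrays were processed in 3 sessions: sessions 1 and 2 each hold 2 arrays of every group at days 0, 2 and 4, and session 3 holds 3 day 4 arrays per insert and all day 10 arrays. Days 0 and 10 therefore share no session. The ratio of 3′ to 5′ actin signal, a measure of RNA quality, also differed between these days. In vector cells it was 1.09 to 1.24 at day 0 and 1.30 to 1.59 at day 10. It was 1.06 to 1.21 and 1.33 to 1.46 in PPARg cells, and 1.11 to 1.42 and 1.29 to 1.46 in EBF1 cells. Its part in the differences between days was not tested. The Pparg probe set read 58.3 to 89.3 in PPARg cells at day 0, against 16.5 to 21.8 in vector cells, while the Ebf1 probe set read 176 to 390 in EBF1 cells and 197 to 288 in vector cells and so did not mark the insert. Adipocyte markers were high where an insert was present at day 10. The adipocyte gene Adipoq read 7369 and 8028 in EBF1 cells at day 10, 6223 to 6638 in PPARg cells and 273 to 1281 in vector cells, while the collagen genes Col1a1 and Col1a2 and the matrix gene Fn1 were bright on every array. Of the other fibroblast markers, Pdgfra, Col3a1 and S100a4 were bright too. Vim (223 to 436) and Pdgfrb (117 to 508) read far lower, and Thy1 ranged from 208 to 1563. Of 11 markers of other cell types, Ptprc, Krt18 and Epcam were at the floor of 54.5 on all 53 arrays and Cdh5 on 12, while the other 7 were above it on every array, among them Myog (365 to 576), Krt8 (261 to 540.5) and Cd3e (189 to 354). In RNA of whole cultures, a change in the share of cells that become adipocytes and a change in RNA per cell cannot be told apart.

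The level of the 91 members together moved late. Each member's log2 intensity was set against its mean in vector cells at day 0, and the median over members was taken on each array. At day 0 this median lay between -0.07 and 0.16 in EBF1 cells, between 0.10 and 0.23 in PPARg cells and between -0.26 and 0.13 in vector cells. The lowest of these values belonged to vector replicate 4, which stood below the other arrays of its group. At day 4 the median was 0.25 to 0.76 in EBF1 cells (middle array 0.51), 0.23 to 0.42 in PPARg cells (middle array 0.38) and 0.01 to 0.26 in vector cells (middle array 0.23). At day 10 it was 0.72 and 0.40 in the 2 EBF1 arrays, 0.20, 0.32 and 0.71 in the 3 PPARg arrays, and 0.03, -0.05 and 0.06 in the 3 vector arrays. The middle vector array was thus above the day 0 arrays at day 4 and near them at day 10, while every array with an insert stayed above every vector array at day 10.

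**Figure D1:**
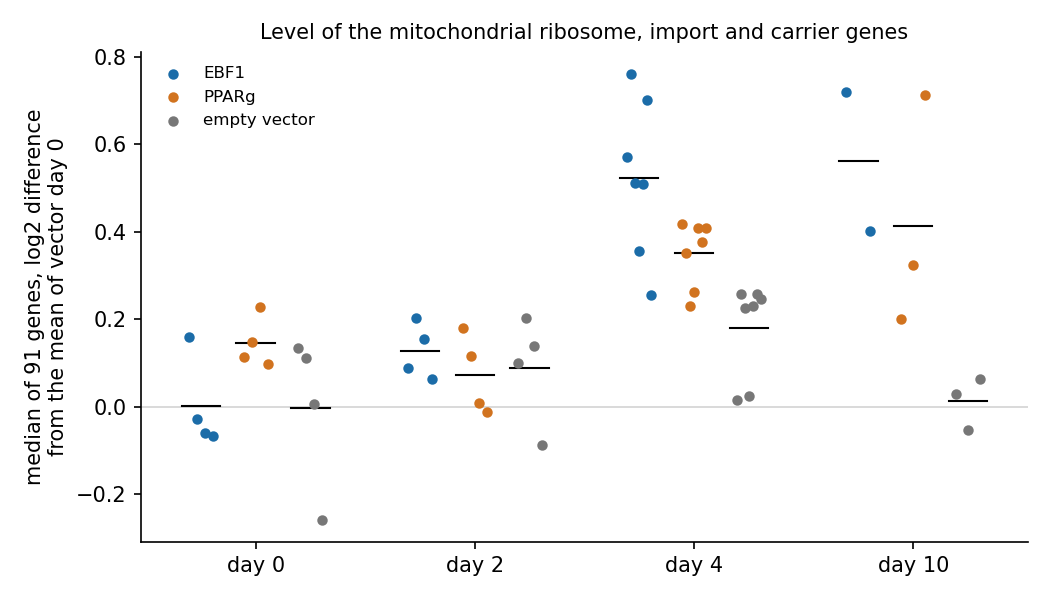
Median over the 91 tested members of the log2 intensity minus the mean of vector cells at day 0, with 1 point per array, by insert and day; black bars are group means. At day 10 the EBF1 arrays lie at 0.40 and 0.72 and the PPARg arrays at 0.20 to 0.71, all above the vector arrays at -0.05 to 0.06.

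A gene is called higher or lower below when its difference passed limma's moderated test at an adjusted p below 0.05 (two-sided, Benjamini-Hochberg over 7619 probe sets). Differences are on the log2 scale, first group minus second, so that 1 is a doubling. In EBF1 cells at day 4, 60 of the 91 members were higher than in vector cells and 0 were lower, while 19.5% of all genes tested were called in either direction and 11.4% were higher. The members' median difference was 0.36, against 0.04 over all genes. In PPARg cells at day 4, 29 members were higher and 0 lower, where 7.93% of all genes were called and 5.95% were higher, and the members' median was 0.23 against -0.02 over all genes. The counts differed between sessions, whose fits held 2, 2 and 3 arrays per group at day 4. The share of all genes called within each session is not given here. Within sessions 1, 2 and 3, 58, 6 and 15 members were called in EBF1 cells (medians 0.55, 0.37 and 0.27) and 10, 1 and 2 in PPARg cells (medians 0.28, 0.20 and 0.20). The PPARg count was 15 without vector replicate 4 or without PPARg replicate 7, 18 without vector replicate 1 and 19 without PPARg replicate 5.

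At day 10, where all arrays share a session, 54 of the 91 members were higher in EBF1 cells than in vector cells and 0 were lower. Among all genes 18.5% were called and 10.6% were higher, and the members' median was 0.53 against -0.02 over all genes. In PPARg cells 43 members were higher and 1, the carrier Slc25a17, was lower, where 24.1% of all genes were called and 9.60% were higher. The members' median there was 0.39 against -0.01 over all genes. The EBF1 count fell to 21 without EBF1 replicate 1, which leaves 1 array, and the PPARg count to 28 without PPARg replicate 3. These are the arrays of their groups on which the members stood highest, and their mean intensities were the highest of all arrays. For 64 of the 91 members both EBF1 arrays lay above all 3 vector arrays, as did 16.4% of all genes, and for 47 all 3 PPARg arrays did, as did 13.3% of all genes.

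Other cell markers moved with these groups, and their part in the members' differences was not tested. Of 13 adipocyte markers tested, 7 were higher in EBF1 cells and 7 in PPARg cells at day 4, and 9 and 9 at day 10. Of 9 fibroblast markers, 7 were lower in EBF1 cells and 4 in PPARg cells at day 4, and 4 and 7 at day 10. Of 13 proliferation markers, 5 were higher and 1 lower in EBF1 cells at day 4, and 5 were lower at day 10. The median level of the adipocyte markers at day 10 was 2.11 to 2.57 above vector day 0 in EBF1 cells, 2.15 to 2.27 in PPARg cells and 0.00 to 0.52 in vector cells, and that of the fibroblast markers -0.36 to -0.20 in EBF1 cells, -0.75 to -0.54 in PPARg cells and 0.12 to 0.31 in vector cells.

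**Figure D2:**
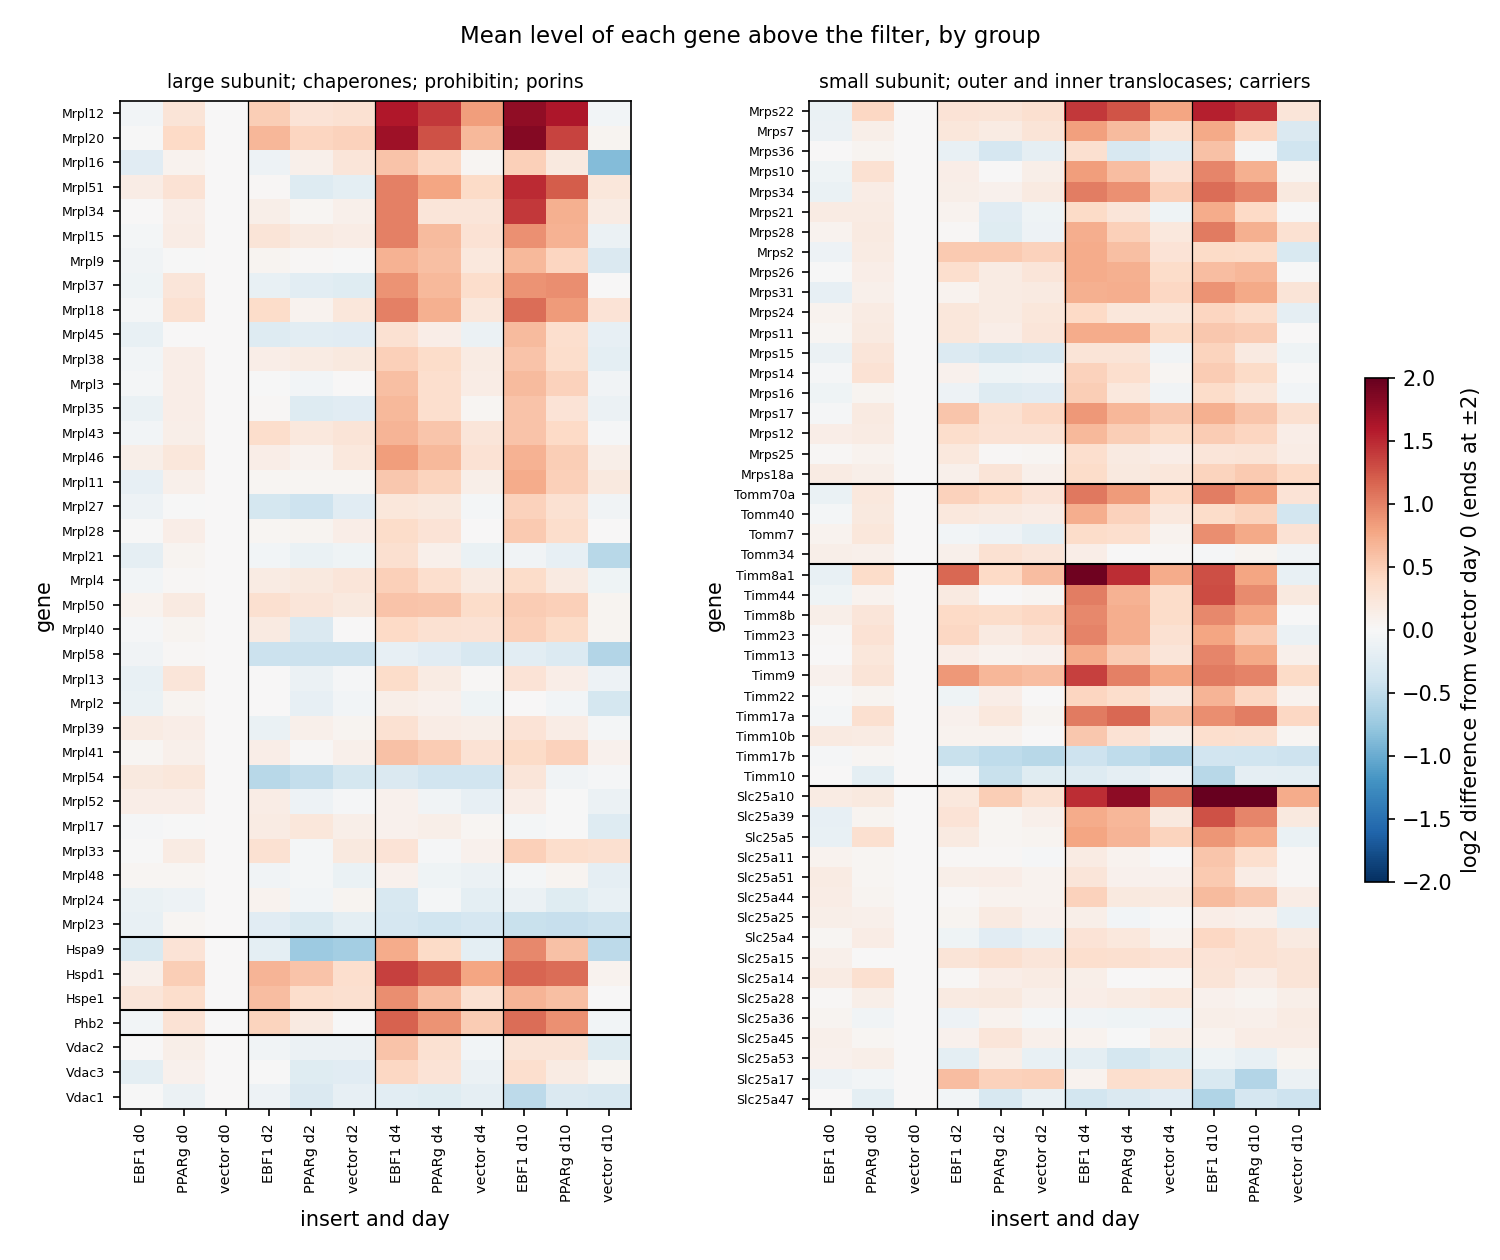
Group means of the 91 tested members (rows, by role and within a role by the EBF1 difference at day 10) in the 12 groups (columns), as the log2 difference from vector cells at day 0; the colour scale ends at ±2. The EBF1 and PPARg columns at days 4 and 10 are higher for most ribosomal and import genes, while the carrier rows differ among themselves.

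More than 1 in 2 of the genes for mitochondrial ribosomal proteins were higher in EBF1 cells at days 4 and 10, and fewer in PPARg cells. Of 34 large subunit genes tested, 23 were higher in EBF1 cells and 11 in PPARg cells at day 4, and 19 and 14 at day 10. Of 19 small subunit genes, 14 and 8 were higher at day 4 and 14 and 11 at day 10. The 19 include Mrps36 by its symbol, though it is now known as a subunit of the oxoglutarate dehydrogenase complex. None of the ribosomal genes was lower in these 4 comparisons.

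Mrpl12, a large subunit protein of the stalk that also binds the mitochondrial RNA polymerase, had the largest ribosomal difference. At day 10 it read 2018.5 and 1315 in EBF1 cells, 1306, 1288 and 1882 in PPARg cells, and 526, 415 and 445 in vector cells. No array with an insert came near a vector array. The difference from vector cells was 1.83 in EBF1 cells (SE 0.23, adjusted p = 2.9e-08) and 1.67 in PPARg cells (SE 0.21, adjusted p = 1.5e-08). At day 4 Mrpl12 read 1007 to 2071 in EBF1 cells (median 1497), 1028 to 1628 in PPARg cells (median 1250) and 695 to 1065 in vector cells (median 866). The lowest insert arrays overlapped the highest vector arrays, and the differences from vector cells were 0.77 in EBF1 cells (adjusted p = 2.9e-05) and 0.58 in PPARg cells (adjusted p = 0.0042).

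Mrpl20, another large subunit protein, had the widest range of group means among the ribosomal genes, 1.84. It read 773 and 484 in EBF1 cells at day 10, 326, 399 and 659 in PPARg cells, and 176, 176 and 188 in vector cells. Both inserts lay apart from the vector arrays, by 1.77 in EBF1 cells (SE 0.24, adjusted p = 9.4e-08) and 1.30 in PPARg cells (SE 0.21, adjusted p = 4.8e-06). Among the other large subunit genes, Mrpl16 was higher by 1.35 and Mrpl51 by 1.27 in EBF1 cells at day 10 (adjusted p = 0.00056 and 4.5e-06). In PPARg cells Mrpl16 was higher by 1.06. From day 0 to day 10 Mrpl16 changed by 0.71 in EBF1 cells and 0.12 in PPARg cells, neither of which passed the test. In vector cells it changed by -0.87 over these days, which share no session. Mrpl18 was higher by 0.78 in EBF1 cells at day 4 (adjusted p = 0.00026). At the other end, Mrpl48 ranged over only 0.27 across the 12 group means.

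Mrps22, a small subunit protein, varied most among the small subunit genes. At day 10 it read 336 and 261 in EBF1 cells, 214, 251 and 404 in PPARg cells, and 127, 114 and 119 in vector cells, again with no overlap. The differences were 1.30 (SE 0.24, adjusted p = 3.4e-05) in EBF1 cells and 1.22 (SE 0.21, adjusted p = 1.4e-05) in PPARg cells. Some calls depend on the probe set read. Mrps18a is on 4 probe sets, and the one used differed by 0.04 between EBF1 and vector cells at day 10 where the others differed by 0.96, 0.62 and 0.16. For Mrps25, the small subunit gene with the narrowest range, the values were 0.09 on the probe set used and 0.64 on the other, and for Mrpl48 they were 0.15 and 0.59.

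Mrps36 and Mrpl34 were higher in EBF1 cells than in PPARg cells at day 4. Mrps36 was first listed as a small subunit protein and is now known as a subunit of the oxoglutarate dehydrogenase complex. At day 4 it read 322 to 524 in EBF1 cells (median 445), 252 to 323 in PPARg cells (median 277) and 244 to 355 in vector cells (median 299). EBF1 cells thus stood above PPARg cells by 0.65 (SE 0.09, adjusted p = 3.1e-06), by 0.71, 0.59 and 0.65 within sessions 1, 2 and 3, while PPARg cells differed from vector cells by -0.11 (adjusted p = 0.66). At day 10 Mrps36 read 623 and 423 in EBF1 cells, 288, 297 and 441 in PPARg cells, and 236, 257 and 288 in vector cells. One PPARg array overlapped the EBF1 arrays, and the difference between the inserts was 0.61 (SE 0.16, adjusted p = 0.034). Mrpl34, a large subunit protein, read 334 to 727 in EBF1 cells at day 4 (median 453), 208 to 336 in PPARg cells (median 301) and 201 to 369 in vector cells (median 290). EBF1 cells were above PPARg cells by 0.76 (SE 0.15, adjusted p = 0.00098), and by 0.84, 0.69 and 0.74 within the 3 sessions. At day 10 the difference between the inserts was 0.71 and did not pass the test (adjusted p = 0.3).

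**Figure D3:**
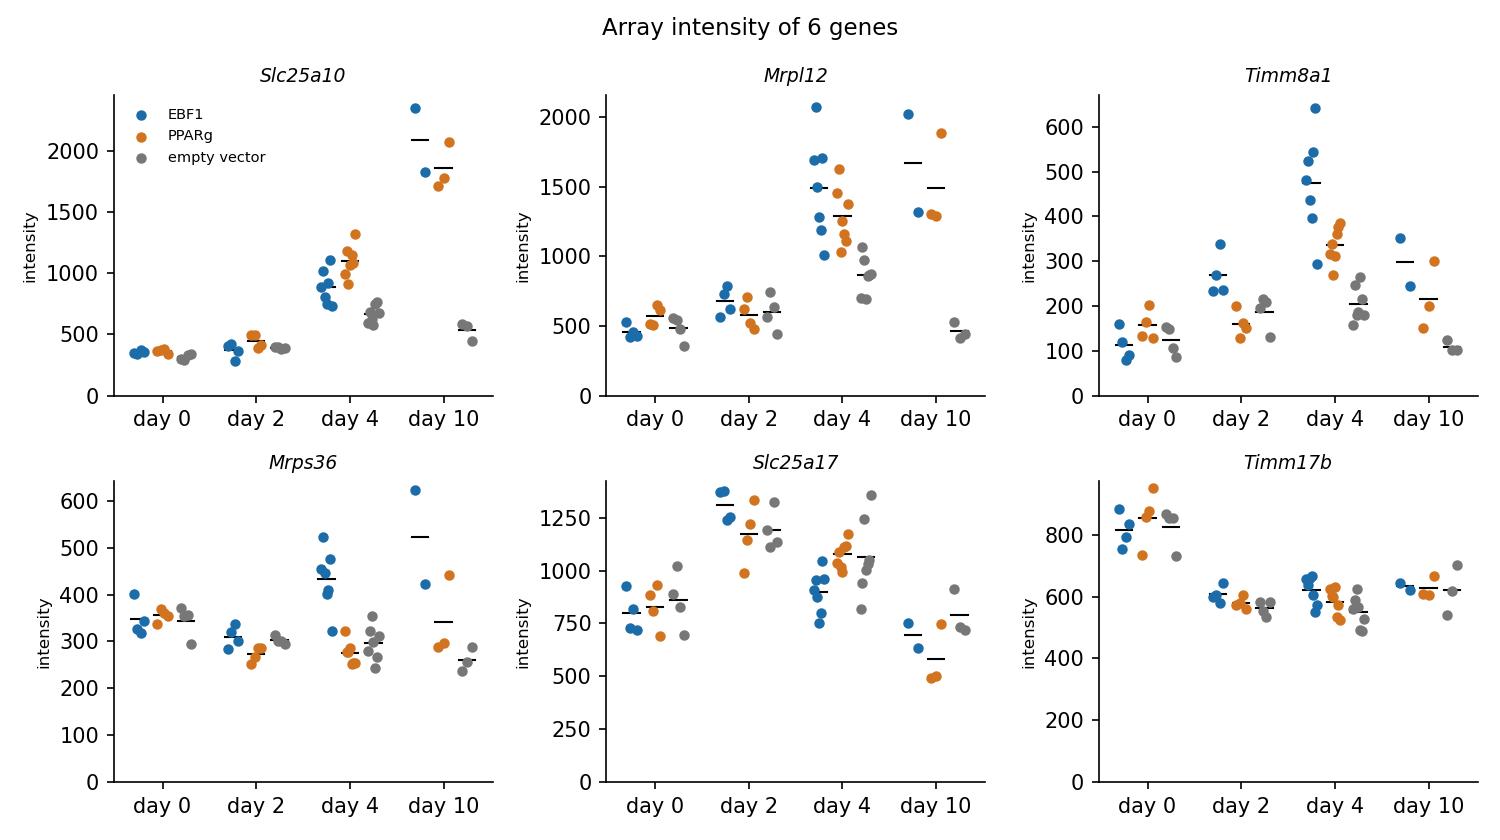
Intensity of Slc25a10, Mrpl12, Timm8a1, Mrps36, Slc25a17 and Timm17b on each array, by insert and day; black bars are group means, and intensities of different probe sets are not comparable between panels. Slc25a10 and Mrpl12 separate both inserts from vector cells at day 10, Mrps36 is higher in EBF1 cells than in PPARg cells at day 4, and the Timm17b means at days 2 to 10 (549 to 634) lie below those at day 0 (816 to 855).

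The 3 mitochondrial chaperones were all higher in both insert lines than in vector cells at day 10. Hspa9, or mortalin, the motor of import and a chaperone of the matrix, read 2274 and 1414 in EBF1 cells at day 10, 1345, 1275 and 1533 in PPARg cells, and 818, 572 and 559 in vector cells. No insert array overlapped a vector array, and the differences were 1.49 (SE 0.27, adjusted p = 2.5e-05) in EBF1 cells and 1.11 (SE 0.24, adjusted p = 0.0003) in PPARg cells. From day 0 to day 10 Hspa9 changed by 1.28 in EBF1 cells, 0.32 in PPARg cells and -0.52 in vector cells. With the session as a block these changes were 0.77, -0.18 and -1.02. The PPARg change did not pass the test in either fit, and the vector change passed only with the block. Hspd1, the chaperonin subunit, read 4076 and 3080 in EBF1 cells, 3260, 3645 and 3406 in PPARg cells, and 2031, 1576 and 1414 in vector cells. No insert array overlapped a vector array, and the differences were 1.10 (SE 0.14, adjusted p = 1.6e-08) in EBF1 cells and 1.05 (SE 0.12, adjusted p = 2.6e-09) in PPARg cells. A second Hspd1 probe set differed by 0.07 in EBF1 cells. Hspe1, the cochaperonin, was higher by 0.68 in EBF1 cells and 0.61 in PPARg cells at day 10, and did not pass without EBF1 replicate 1 in the one case and without PPARg replicate 3 in the other.

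Phb2, which forms ring complexes in the inner membrane and acts as a scaffold there, read 1777 and 1452 in EBF1 cells at day 10, 1143, 1405 and 1711 in PPARg cells, and 778, 742 and 630 in vector cells. It separated both inserts from vector cells, with differences of 1.17 (SE 0.20, adjusted p = 7.5e-06) in EBF1 cells and 0.97 (SE 0.18, adjusted p = 2.3e-05) in PPARg cells. At day 4 the differences were 0.68 and 0.39 (adjusted p = 1.3e-05 and 0.023), and the PPARg difference did not pass without vector replicate 4 or PPARg replicate 5, 6 or 7. Its partner Phb1 is on a probe set shared with another symbol and was not analysed here. Tfam read 37.1 to 71.1 over all arrays, with 21 of them at the floor, and was not tested.

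The import channels of both membranes took part. Of 11 inner membrane genes tested, 10 were higher in EBF1 cells and 3 in PPARg cells at day 4, and 7 and 7 at day 10. Of 4 outer membrane genes, 2 and 1 were higher at day 4 and 3 and 1 at day 10. Timm8a1, an X-linked chaperone of the intermembrane space that guides precursors to the inner membrane, had the largest EBF1 difference of any member at day 4. It read 294 to 643 in EBF1 cells (median 482), 270 to 384 in PPARg cells (median 340) and 157 to 265 in vector cells (median 186), so that neither insert overlapped the vector arrays. The differences from vector cells were 1.20 (SE 0.16, adjusted p = 2.7e-07) and 0.73 (SE 0.16, adjusted p = 0.0023). At day 10 Timm8a1 read 352 and 245 in EBF1 cells, 150, 200.3 and 300.1 in PPARg cells, and 123, 102 and 101 in vector cells, with differences of 1.44 (adjusted p = 0.0001) and 0.94 (adjusted p = 0.0035), the second of which did not pass without PPARg replicate 3. The insert arrays again lay above the vector arrays, with the PPARg arrays spread more widely than the others.

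Of the parts of the inner membrane channel, Timm23 was higher by 0.91 in EBF1 cells and 0.65 in PPARg cells at day 10. Timm17a passed the test in PPARg cells, with a difference of 0.61, and had 0.50 in EBF1 cells without passing; the PPARg call was lost without vector replicate 2 or 3 or PPARg replicate 3. Timm44, which ties Hspa9 to the channel, read 837 and 535 in EBF1 cells, 485, 486 and 608 in PPARg cells, and 341, 273 and 323 in vector cells. It was higher by 1.11 (SE 0.18, adjusted p = 6.8e-06) and 0.75 (SE 0.16, adjusted p = 0.0004), with no array in common. Tomm40, the channel of the outer membrane, read 605 and 524 in EBF1 cells at day 10, 549, 547 and 709 in PPARg cells, and 313, 340 and 363 in vector cells. All insert arrays lay above the vector arrays, by 0.74 on average in EBF1 cells (SE 0.16, adjusted p = 0.00066) and 0.82 in PPARg cells (SE 0.15, adjusted p = 2.1e-05). Tomm70, the receptor for carrier precursors, was higher by 0.64 at day 4 and 0.74 at day 10 in EBF1 cells, and the day 10 call was lost without vector replicate 2 or 3 or EBF1 replicate 1. Tomm34, mainly a cytosolic cochaperone despite its name, had the narrowest range of the outer membrane genes, 0.38.

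The porins, which let metabolites through the outer membrane, were mixed. Vdac2 was higher by 0.63 in EBF1 cells and 0.36 in PPARg cells at day 4 (SE 0.10 each), and by 0.49 and 0.50 at day 10. Vdac3 was higher by 0.54 in EBF1 cells at day 4. Both day 10 calls of Vdac2 were lost without vector replicate 3 and without 1 insert array (EBF1 replicate 1 or PPARg replicate 3), and the EBF1 call also without vector replicate 2. No single array left out ended the day 4 calls of Vdac2. Vdac1 passed the test in none of the 21 comparisons made, and its group means ranged over 0.53 on a probe set that read 83.3 to 187 over all arrays.

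The carriers were the least uniform role. Of 16 tested, 5 were higher in EBF1 cells and 2 in PPARg cells at day 4, and 6 and 5 at day 10, and their median difference at day 10 was 0.12 in EBF1 cells and 0.10 in PPARg cells. Yet a carrier led all members. Slc25a10, the dicarboxylate carrier, exchanges malate or succinate for phosphate and is known to be abundant in white fat. At day 10 it read 2354 and 1831 in EBF1 cells, 1713, 1783 and 2076.5 in PPARg cells, and 589, 566 and 445 in vector cells. Every insert array was above every vector array, and the differences were 1.97 (SE 0.16, adjusted p = 6e-14) in EBF1 cells and 1.80 (SE 0.14, adjusted p = 3.7e-14) in PPARg cells. At day 4 Slc25a10 was lower in EBF1 cells than in PPARg cells. It read 733 to 1106 in EBF1 cells (median 892), 909 to 1324 in PPARg cells (median 1081) and 575 to 766 in vector cells (median 676), and EBF1 cells were below PPARg cells by -0.31 (SE 0.09, adjusted p = 0.029). The call was lost without PPARg replicate 2 or 7 or EBF1 replicate 3, 4 or 7.

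Slc25a5 and Slc25a4 are the ADP/ATP carriers of most proliferating cells and of muscle. Slc25a5 read 3887 and 2936 in EBF1 cells at day 10, 2799, 2907 and 3480 in PPARg cells, and 1813, 1529 and 1687 in vector cells, and it was higher by 1.01 (SE 0.18, adjusted p = 2.3e-05) and 0.87 (SE 0.16, adjusted p = 4e-05). The other 2 probe sets of Slc25a5 differed by -0.10 and 0.25 in EBF1 cells. Slc25a4 overlapped between the groups at day 10, with 3374 and 2537 in EBF1 cells, 2447, 2626 and 3102 in PPARg cells, and 2723, 2240 and 2547 in vector cells, and its EBF1 difference of 0.23 did not pass the test (adjusted p = 0.23). Slc25a39, which brings glutathione into the matrix, was higher by 1.08 in EBF1 cells and 0.77 in PPARg cells at day 10 (adjusted p = 0.00039 and 0.0038), and Slc25a11, the oxoglutarate carrier, by 0.53 and 0.31. The Slc25a11 calls were lost without EBF1 replicate 1 or PPARg replicate 3. Slc25a17 sits in the peroxisome membrane, where it carries cofactors, and was the one member called lower than in vector cells at day 10, in PPARg cells. It read 752 and 635 in EBF1 cells, 492, 500.3 and 746 in PPARg cells, and 915, 733 and 719 in vector cells. The PPARg difference was -0.46 (SE 0.15, adjusted p = 0.018) with overlapping arrays, lost without vector replicate 1 or PPARg replicate 1 or 2, and the EBF1 difference was -0.18 (adjusted p = 0.6). The phosphate carrier Slc25a3 lay below the filter on its probe set and was not tested.

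**Figure D4:**
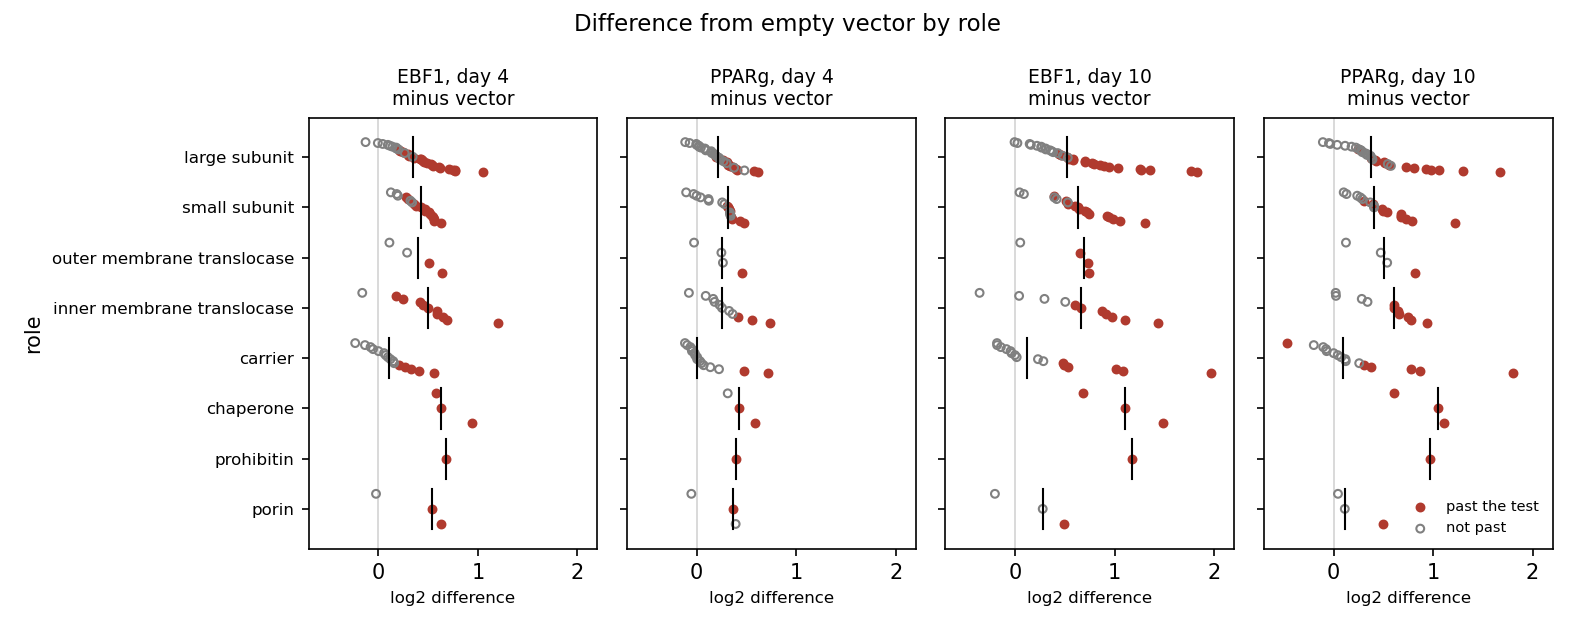
Log2 difference from vector cells of each tested member, by role, for EBF1 and PPARg cells at days 4 and 10; red points passed the test, and black bars are role medians. The carriers centre near 0, with Slc25a10 above the other carriers at day 10, while the 3 chaperones lie between 0.61 and 1.49 at day 10.

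The carriers followed the other members less closely than the ribosomal and inner membrane genes did. The Pearson correlation of a member with the mean of all other members, over the 12 group means, had a median of 0.86 over the 91 members and a range from -0.66 to 0.99. These points share arrays and sessions, so the values are descriptions. The correlation exceeded 0.7 for 24 of 34 large subunit genes, 16 of 19 small subunit genes and 9 of 11 inner membrane genes, but for 7 of 16 carriers. Over the other 5670 genes tested, 10.4% exceeded 0.7 with the same mean.

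Before day 4 few members passed the test between insert and vector cells. At day 0, limma called 0 of the 91 members in EBF1 cells against vector cells (0 also had an unadjusted p below 0.05), where 0.833% of all genes were called. In PPARg cells it called 1, Hspd1, where 3.77% of all genes were called. All PPARg arrays of day 0 lay above all vector arrays for 9 of the 91 members, and below them for 0. The share of all genes without such overlap is not given here. Hspd1 read 2072 to 2485 in PPARg cells at day 0 (median 2157) and 1384 to 1781 in vector cells (median 1585), a difference of 0.49 (SE 0.11, adjusted p = 0.0026). In the same comparison 9 of the 13 proliferation markers were higher in PPARg cells, and their part in the Hspd1 difference was not tested. At day 2, limma called 0 members in EBF1 cells (5 at an unadjusted p below 0.05), where 1.56% of all genes were called, and 0 in PPARg cells (1 at an unadjusted p below 0.05), where 0.642% were. Replicate numbers paired the EBF1 and vector arrays of day 2, and with the number as a block 2 members were called.

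The direct comparison of the inserts called few members. EBF1 cells were above PPARg cells for 7 members at day 4 and below for 1, Slc25a10, where 6.16% of all genes were called. With the session as a block, 15 were higher and 1 lower. Besides Mrps36 and Mrpl34 the higher ones included the large subunit gene Mrpl15, by 0.38 (adjusted p = 0.0082). Within sessions 1, 2 and 3, 13, 0 and 0 members were called with medians of 0.26, 0.15 and 0.04, and the count was 4 without PPARg replicate 3, PPARg replicate 4 or EBF1 replicate 6, 5 without PPARg replicate 1, PPARg replicate 2, EBF1 replicate 2 or EBF1 replicate 5, and 13 without EBF1 replicate 7. The shares of all genes called with the block, within a session or without an array are not given here. At day 10, 1 member, Mrps36, was higher and 0 were lower, where 1.23% of all genes were called. That count was 0 without EBF1 replicate 1, PPARg replicate 1 or PPARg replicate 2, and 2 without EBF1 replicate 2 or PPARg replicate 3. At day 2, 1 member, Timm8a1, was higher, where 5.35% of all genes were called. It read 234 to 338 in EBF1 cells and 129 to 200.4 in PPARg cells, a difference of 0.74 (SE 0.22, adjusted p = 0.03) that did not pass without PPARg replicate 2, 3 or 4 or without EBF1 replicate 2 or 3. The count of calls was 0 without the same PPARg arrays or without EBF1 replicate 3. At day 0, 2 members were lower in EBF1 cells, where 6.35% of all genes were called: Hspd1 by -0.39 (adjusted p = 0.016) and Slc25a5 by -0.48 (adjusted p = 0.026). Hspd1 lost its call without PPARg replicate 1 or EBF1 replicate 4, and Slc25a5 without PPARg replicate 1, 2 or 3 or EBF1 replicate 3. The day 0 count was 0 without PPARg replicate 1, 4 without EBF1 replicate 1, and 1 without PPARg replicate 2, PPARg replicate 3, EBF1 replicate 3 or EBF1 replicate 4.

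In vector cells, which had the hormones alone, 10, 29 and 9 of the 91 members were called at days 2, 4 and 10 against day 0. The share was below that of all genes at days 2 and 10 and above it at day 4. At day 4 against day 0, 27 of the 91 were higher and 2 lower in vector cells, where 25.0% of all genes were called, with a median of 0.18. The count of 29 was 18 without vector replicate 4 of day 0. Slc25a10 was higher by 1.07 (SE 0.11, adjusted p = 2.5e-11), Mrpl12 by 0.84 (SE 0.16, adjusted p = 5.4e-05) and Hspd1 by 0.79 (SE 0.09, adjusted p = 3e-09). At day 10 against day 0, 3 members were higher and 6 lower in vector cells, where 15.5% of all genes were called, and the median was 0.00. The 9 calls were 5 without vector replicate 1 or 3 of day 0 or without vector replicate 1 or 2 of day 10. Slc25a10 was still higher, by 0.74, and with it Slc25a15, the ornithine carrier, by 0.26. Among the lower ones were the large subunit genes Mrpl16 by -0.87, Mrpl58 by -0.59, Mrpl21 by -0.55 and Mrpl23 by -0.44 (adjusted p = 0.011, 0.023, 0.012 and 0.004). Mrpl58 is a release factor built into the ribosome. Each of these calls but that of Mrpl23 was lost without at least 1 of the vector arrays, as was that of Slc25a15. With the session as a block all 4 calls were lost, and Hspa9 was the 1 member lower at day 10, by -1.02 (adjusted p = 0.00014). Slc25a10 was then higher by 0.57. At day 2 against day 0, 7 were higher and 3 lower, where 22.2% of all genes were called, and the 10 calls were 6 without vector replicate 3 of day 2. Hspa9 was lower by -0.68 and Slc25a17 higher by 0.48 then, and the Hspa9 call was lost without vector replicate 1 or 2 of day 0 or replicate 4 of day 2.

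With an insert, most of the called members were higher at both later days. In EBF1 cells 61 were higher and 2 lower at day 4 than at day 0, where 34.0% of all genes were called, and 54 were higher and 1 lower at day 10, where 28.0% were. The day 10 count of 55 was 30 without EBF1 replicate 1 of day 10. In PPARg cells 38 were higher and 5 lower at day 4, where 33.4% of all genes were called, and 34 were higher and 3 lower at day 10, where 33.0% were. The day 10 count of 37 was 21 without PPARg replicate 3 of day 10. Since days 0 and 10 share no session, these differences rest on the day 4 arrays to tie the sessions, and with the session as a block 50 were higher and 0 lower in EBF1 cells, 26 and 3 in PPARg cells, and 2 and 1 in vector cells. The share of all genes called with the block is not given here. Slc25a10 was higher by 2.55 in EBF1 cells, 2.34 in PPARg cells and 0.74 in vector cells at day 10 than at day 0. Timm8a1 was higher by 2.08 in EBF1 cells at day 4 than at day 0 (SE 0.19, adjusted p = 1.3e-12).

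Timm17b, the second form of the channel subunit Timm17, was lower after day 0. It read 731 to 867 in vector cells at day 0 (median 854), 533 to 583 at day 2, 487 to 625 at day 4, and 540.5, 617 and 703 at day 10. At day 10 it was below day 0 by -0.36 in EBF1 cells (adjusted p = 0.0058), -0.44 in PPARg cells (adjusted p = 0.00012) and -0.42 in vector cells (adjusted p = 0.0007). The EBF1 call was lost without EBF1 replicate 2 of day 10. With the session as a block the day 10 differences of Timm17b were -0.17 (adjusted p = 0.25), -0.25 (adjusted p = 0.026) and -0.22 (adjusted p = 0.11), so that only the PPARg call was left. Days 2 and 4 share sessions with day 0, and there Timm17b was below day 0 in vector cells by -0.55 and -0.59, or -0.55 and -0.51 with the block. The other Timm17 gene, Timm17a, was above vector cells in PPARg cells at day 10, as given above.

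The difference from vector cells grew from day 0 to day 10 for many members. Tested as the day 10 difference minus the day 0 difference, it was larger for 36 of 91 members in EBF1 cells and for 14 in PPARg cells, with 0 smaller in either, where 12.9% and 12.5% of all genes were called. The PPARg share of 15.4% was near that over all genes, the EBF1 share was 39.6%. The members' medians were 0.53 and 0.27, against -0.08 and -0.07 over all genes. The EBF1 count was 15 without EBF1 replicate 1 of day 10, and the PPARg count 6 without PPARg replicate 3 of day 10 and 9 without vector replicate 1 of day 0. The largest gains were those of Mrpl12 (1.88 in EBF1 cells, 1.42 in PPARg cells), Slc25a10 (1.81 and 1.60), Mrpl20 (1.78 and 0.90) and, in EBF1 cells, Hspa9 (1.80). The Hspa9 gain includes a change of -0.52 in vector cells from day 0 to day 10, or -1.02 with the session as a block. The PPARg gain of Mrpl20 did not pass without vector replicate 3 or PPARg replicate 1 of day 0, or without vector replicate 1 or PPARg replicate 3 of day 10.

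The leading pair are neighbours in the genome: Mrpl12 and Slc25a10 lie next to each other on chromosome 11, on the same strand. Hspd1 and Hspe1 adjoin on chromosome 1, and Mrpl46 and Mrps11 on chromosome 7. The leading pair did not move alike in every comparison. In vector cells Slc25a10 changed by 0.74 from day 0 to day 10 and Mrpl12 by -0.05. The 150 bases before the annotated start are shown here for this pair. Also shown are the 4 members with the largest EBF1 differences at day 10 that hold the core of an ETS factor site there. ETS factors such as GABPA are known regulators of genes for mitochondrial proteins. The sequences are RefSeq's for GRCm38.p6, written 5′ to 3′ on the gene's strand, with the ETS core CCGGAAG, or its reverse complement, in capitals.
Mrpl12, chr11:120484487-120484636, plus strand: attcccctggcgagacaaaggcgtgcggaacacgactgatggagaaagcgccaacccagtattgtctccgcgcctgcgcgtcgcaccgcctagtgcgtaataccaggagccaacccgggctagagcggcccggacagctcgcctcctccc
Slc25a10, chr11:120491687-120491836, plus strand: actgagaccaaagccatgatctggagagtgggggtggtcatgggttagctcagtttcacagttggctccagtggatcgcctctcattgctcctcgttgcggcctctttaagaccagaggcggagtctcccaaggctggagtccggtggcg
Mrps22, chr9:98601680-98601829, minus strand: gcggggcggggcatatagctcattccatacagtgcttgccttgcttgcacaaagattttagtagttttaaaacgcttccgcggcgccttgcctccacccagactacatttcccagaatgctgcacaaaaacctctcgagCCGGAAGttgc
Mrpl51, chr6:125192050-125192199, plus strand: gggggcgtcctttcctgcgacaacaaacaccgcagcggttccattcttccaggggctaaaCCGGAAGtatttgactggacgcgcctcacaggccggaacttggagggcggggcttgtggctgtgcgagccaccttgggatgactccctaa
Mrpl34, chr8:71464776-71464925, plus strand: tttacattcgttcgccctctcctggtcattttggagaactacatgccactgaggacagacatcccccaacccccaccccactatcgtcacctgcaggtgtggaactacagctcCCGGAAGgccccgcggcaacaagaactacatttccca
Phb2, chr6:124712139-124712288, plus strand: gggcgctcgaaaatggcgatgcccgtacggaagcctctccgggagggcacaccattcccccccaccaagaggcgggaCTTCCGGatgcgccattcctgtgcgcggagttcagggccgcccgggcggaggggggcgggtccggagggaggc
Mrpl12 and Slc25a10 held no ETS core in this stretch, while in Mrps22 it ended 5 bases before the start and in Mrpl34 it ended 31 bases before it.

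Over the whole set, 91 of the 104 members had a 300-base window (250 before the start and 50 after), and both strands were searched for exact words. The ETS core was in 35 members, or 38.5%, against 9.93% of 27025 genes and 19.9% of 4622 genes tested on the array. The YY1 word AAGATGGCG was in 8.79% of members, against 1.64% of all genes and 3.70% of array genes, and the NRF1 core CGCATGCG in 4.40%, 2.07% and 4.41%. The E-box CACGTG was in 13.2%, 8.09% and 12.2%, and the ERR word TCAAGGTCA in 1 member. A DR1 element without mismatch, the kind of site PPARg is known to bind, was in 0 members and in 0.0481% of all genes. The ETS core did not track the calls: 41.2% of the 51 members higher in EBF1 cells at day 4 held it and 37.0% of the 27 others, and at day 10 34.1% of 44 and 47.1% of 34. The words are descriptions of letters in a window, not of bound sites.

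Other genes of the mitochondrion moved beside the members. Of 65 tested genes of the respiratory chain and ATP synthase, 48 were higher in EBF1 cells and 21 in PPARg cells at day 4, and 52 and 45 at day 10, with day 10 medians of 1.05 and 0.74. Of 17 citrate cycle genes, 14 were higher in EBF1 cells (1 was lower) and 10 in PPARg cells at day 4, and 14 and 15 at day 10. Of 14 factors of mitochondrial translation and DNA maintenance, 5 and 4 were higher at day 4 and 6 and 3 at day 10, among them the elongation factors Tufm (1.16 in EBF1 cells, 1.03 in PPARg cells at day 10) and Gfm1 (1.06 and 0.83). Of 14 proteases, processing peptidases and import helpers, 8 and 2 were higher at day 4 and 7 and 5 at day 10. Grpel1, the exchange factor of Hspa9, was higher by 1.79 in EBF1 cells and 1.35 in PPARg cells at day 10, and Samm50, which inserts outer membrane proteins, by 1.62 and 1.34. Of 6 regulators tested, 2 and 1 were higher at day 4 and 2 and 1 at day 10. Esrra, a nuclear receptor known to drive mitochondrial genes, was higher by 0.52 at day 4 and 0.58 at day 10 in EBF1 cells, and Myc by 0.87 in PPARg cells at day 10.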

How the data were processed

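Total RNA of transduced NIH-3T3 cells was read on 53 Affymetrix MG_U74Av2 arrays. The authors deposited 1 intensity per probe set and array on a linear scale, and the algorithm that summarised the probes and the scaling are not given in the sources used here. Groups came from the sample titles, sessions from the array experiment files. Intensities were floored at the pooled 20th percentile (54.5) and log2 was taken. Of 12488 probe sets, 66 were controls, and 7619 lay above the pooled median on at least 2 arrays. The platform annotation gave 1 symbol to 10833 probe sets, several to 396 and none to 1193, and probe sets with several symbols were not used for members.

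Differences were fitted with limma 3.58.1 in R 4.3.3 as 12 group means in 1 model over 53 arrays, with an intensity trend, so that the small day 10 groups share the spread of the rest. In the 21 comparisons p-values were two-sided and adjusted (Benjamini-Hochberg) over all probe sets tested. The pipeline was tested on simulated data. The precision is limited by the number of arrays. Members and gene lists were chosen with earlier results of these data known. Named members were, by rule, those past the test with the largest differences in each comparison, the widest and narrowest in each role, and a list of well-known import, carrier and chaperone genes. Replicate numbers were taken as pairs where there were at least 3 same-numbered pairs and the deviations of each correlated above 0.1. This held only for EBF1 against vector at day 2 (4 pairs, r from 0.62 to 0.68) and for PPARg at day 10 against day 0 (3 pairs, r from 0.31 to 0.44). With only 2 pairs, EBF1 at day 10 also correlated with vector cells (r 0.58 and 0.69) and with EBF1 at day 0 (0.48 and 0.57). EBF1 against vector at day 4 missed the rule through its lowest value, with 7 pairs and r from 0.06 to 0.69. None of these comparisons was taken as paired. Alternatives were other floors, filters and probe set rules, quantile normalization, session and replicate blocks, single sessions, fits of only the groups compared, and leaving out each array. Counts of members under these alternatives are given without the share of all genes called there. They show how the calls moved, not a trait of the members.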

Additional observations from a re-analysis of the deposited data

Results flagged for a closer look

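In groups of 4 to 10 arrays, 8 of 162 gene or median values had 1 array far from the others; about 5% would by chance. The members' median of EBF1 replicate 1 at day 0 was 0.16, with the others from -0.07 to -0.03. Vector replicate 4 at day 0 stood low for Mrpl20 (139.9, others 181 to 188), Mrpl34 (196, others 255 to 260) and Timm17b (731, others 854 to 867). Vector replicate 4 at day 2 was low for Mrpl20 (182, others 254 to 259). The remaining arrays were EBF1 replicate 4 at day 0 for Hspd1 (1406, others 1782 to 1804), PPARg replicate 4 at day 0 for Phb2 (759, others 940.4 to 975) and EBF1 replicate 1 at day 2 for Tomm40 (465, others 516 to 525).

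The difference from vector cells was larger at day 10 than at day 0, by the test of that change, for 18 named members in EBF1 cells: Mrpl12 (1.88), Slc25a10 (1.81), Hspa9 (1.80), Mrpl20 (1.78), Timm8a1 (1.58), Mrpl16 (1.58), Mrps22 (1.43), Mrpl34 (1.25), Phb2 (1.23), Timm44 (1.19), Slc25a5 (1.17), Mrpl15 (1.08), Hspd1 (1.00), Mrps36 (0.97), Mrpl45 (0.94), Timm23 (0.88), Tomm40 (0.77) and Slc25a11 (0.46). In PPARg cells it was larger for 9: Slc25a10 (1.60), Mrpl12 (1.42), Mrpl20 (0.90), Phb2 (0.69), Timm44 (0.68), Mrpl15 (0.65), Tomm40 (0.62), Hspd1 (0.56) and Mrpl45 (0.49). Days 0 and 10 were processed in different sessions, but each difference from vector cells lies within its own sessions.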

How the results depend on the processing

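Of the 163 differences of named genes recomputed under the alternatives, none reversed; outside these, some that had not passed the test changed sign with the session block, such as Hspa9 in PPARg cells at day 10 against day 0 (-0.18, against 0.32). Over the 163, leaving out 1 array gave 1565 values, of which 110 no longer passed the test and 17 newly did, and the other alternatives gave 1577, of which 150 and 24. Leaving out 1 array gave, as lowest and highest counts of members called, 21 and 55 for EBF1 and 28 and 51 for PPARg against vector at day 10, 15 and 32 for PPARg at day 4, and 0 and 1 for EBF1 at day 2. For EBF1 against PPARg it gave 0 and 4 at day 0, 0 and 1 at day 2, 4 and 13 at day 4 and 0 and 2 at day 10. For later days against day 0 it gave 6 and 15 (day 2), 18 and 31 (day 4) and 5 and 11 (day 10) in vector cells, 30 and 58 in EBF1 cells and 21 and 43 in PPARg cells at day 10, and for the change of the difference 15 and 45 in EBF1 cells and 6 and 19 in PPARg cells. Fitting only the groups compared gave 0 for PPARg at day 0, 29 for PPARg at day 10, 1, 4, 4 and 0 for EBF1 against PPARg at days 0, 2, 4 and 10, 4, 18 and 2 for vector days 2, 4 and 10 against day 0, and 9 for the PPARg change. A session block gave 2 for EBF1 at day 2, 5, 2 and 16 for EBF1 against PPARg at days 0, 2 and 4, and 17 and 3 for vector days 2 and 10 against day 0. A replicate block gave 2 for EBF1 at day 2, and 4, 2 and 16 for EBF1 against PPARg at days 0, 2 and 4. It gave 16 and 14 for vector days 2 and 10. Among these comparisons, replicate numbers were taken to pair arrays only for EBF1 at day 2. The block left the PPARg count at day 10 against day 0 at 37. Session 1 alone, with fewer arrays, gave 10 for PPARg at day 4, and 0 and 13 for EBF1 against PPARg at days 0 and 4. Session 2 alone gave 0 and 1 for PPARg at days 0 and 4, 6 for EBF1 at day 4, 1, 0 and 0 for EBF1 against PPARg at days 0, 2 and 4, 4 and 8 for vector days 2 and 4, and 10 for PPARg at day 4 against day 0. Session 3 alone gave 2 for PPARg and 15 for EBF1 at day 4, and 0 and 0 for EBF1 against PPARg at days 4 and 10. Without a filter EBF1 against PPARg at day 2 gave 0, and quantile normalization gave 16 for vector day 2 and 22 for the PPARg change. Where no reason is stated, the cause was not tested. The day 10 groups hold only 2 or 3 arrays, and probe sets near the floor have no order.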
